A study of Mus musculus with 2 samples.

Results

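Chemokines are small secreted proteins that draw leukocytes along a concentration gradient, and each binds 1 or a few receptors of the G protein-coupled class. Epithelial tumour cells are a known source of them: CXCL1, CXCL2 and CXCL5 recruit neutrophils through CXCR2, CCL2 and CCL7 recruit monocytes through CCR2, and CXCL10 recruits activated T cells through CXCR3. Transcription of most of these genes is switched on by NF-κB, downstream of TNF, IL-1 and IL-17, while CXCL10 also answers to interferons. The 10 chemokine genes described here are Cxcl1, Cxcl2, Cxcl5, Cxcl10, Cxcl12, Ccl2, Ccl5, Ccl7, Ccl20 and Cx3cl1. They were chosen by name, with the fold changes of this same comparison already known, so their values are a description and no test was made. All 10 were on the array, read by 17 of its 45101 probe sets, the groups of short oligonucleotides by which an Affymetrix array reads a transcript. 7 of the genes had a single probe set, and every one of the 17 named its chemokine alone.

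The arrays compared 2 cultured mouse cell lines, KALLU+ and KALLU-, with 1 sample each, grown with no treatment named, in DMEM with serum. Both were derived from the KALLU line of lung squamous cell carcinoma (SCC) cells of KA/KA mice, kept on an FVB background, so both carry the kinase-dead Ikkα knock-in in place of active IKKα, a kinase of the NF-κB system. KALLU+ was sorted as Sca1 high and CD24 negative and KALLU- as Sca1 low and CD24 positive. Whether each line stems from 1 clone is not given in the sources used here.

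The deposited value was 1 signed fold change per probe set, S1 over S2, with no signal, no detection call and no p-value. S1 was read as KALLU+ because the series description gives it the higher Sca1. The Sca1 gene, Ly6a, was at -2.57 on the log2 scale at its 1 probe set, against that label. Tnfrsf1a, at -1.16, went against it too, though this sets RNA beside protein: the study describes KALLU+ as the line with more TNFR1 protein. The study also reports more H3K27ac, a histone mark of active chromatin, at the Tnfrsf1a promoter in KALLU+. Cd24a, with a median of -5.73 over 3 probe sets, ran in the direction of the sort. The study also characterises KALLU+ by a set of genes read as higher on this array, which shows how its authors took the sign but is not independent of these values. Of those 13 genes, 12 had a median above 0 and 9 were at least 2-fold higher, with Sox2 154-fold higher, and Ube2c alone was below 0, at -0.07. Apart from the array, the study reports immunoblots with more Sox2, c-Myc, Twist1 and UBCH10 protein in KALLU+, as for TNFR1. UBCH10 is the product of Ube2c. The samples are therefore called the lines labelled KALLU+ and KALLU-, and every direction rests on that reading. With no levels in the table, a fold change near 0 can belong to a gene that is silent in both lines or equally active in both, and the presence of markers could not be checked. As a gauge of scatter, 79 probe sets of odorant and pheromone receptors, taken as silent in these cells, lay between -0.55 and 0.38 on the log2 scale, with an SD of 0.17. The 24 probe sets for the bacterial poly-A spike-in controls centred on -0.45 by their median log2 value, so a scale set by them would raise every value by that amount. Because RNA was taken from whole cultures, fewer cells that make a chemokine and less RNA per cell cannot be told apart.

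The promoters of 6 of the 10 genes were found in RefSeq's sequences for GRCm38.p6. The 4 that hold a match to the consensus motif bound by NF-κB are shown. Each run is the 250 bases before the annotated start, 5′ to 3′ on the strand of the gene. Capitals mark matches to the NF-κB consensus or, in Cxcl10, to the interferon-stimulated response element (ISRE). Cxcl1 lies at chr5:90890995-90891244 on the plus strand, Cxcl2 at chr5:90903649-90903898 on the plus strand, Cxcl10 at chr5:92348890-92349139 on the minus strand and Ccl20 at chr1:83116516-83116765 on the plus strand.
Cxcl1: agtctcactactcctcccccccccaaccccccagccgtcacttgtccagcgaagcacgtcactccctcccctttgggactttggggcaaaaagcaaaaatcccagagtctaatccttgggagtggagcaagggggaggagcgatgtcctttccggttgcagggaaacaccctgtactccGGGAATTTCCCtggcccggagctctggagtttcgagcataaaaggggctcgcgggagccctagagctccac
Cxcl2: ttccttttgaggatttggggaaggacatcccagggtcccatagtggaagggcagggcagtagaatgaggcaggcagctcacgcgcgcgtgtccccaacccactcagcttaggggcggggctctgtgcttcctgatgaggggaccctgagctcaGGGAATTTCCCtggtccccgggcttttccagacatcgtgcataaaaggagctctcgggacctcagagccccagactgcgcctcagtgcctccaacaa
Cxcl10: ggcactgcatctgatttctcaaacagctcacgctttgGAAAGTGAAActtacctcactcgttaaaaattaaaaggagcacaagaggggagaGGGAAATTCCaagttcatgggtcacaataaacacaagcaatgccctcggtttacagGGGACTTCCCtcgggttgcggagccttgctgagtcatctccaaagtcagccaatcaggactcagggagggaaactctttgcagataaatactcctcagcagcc
Ccl20: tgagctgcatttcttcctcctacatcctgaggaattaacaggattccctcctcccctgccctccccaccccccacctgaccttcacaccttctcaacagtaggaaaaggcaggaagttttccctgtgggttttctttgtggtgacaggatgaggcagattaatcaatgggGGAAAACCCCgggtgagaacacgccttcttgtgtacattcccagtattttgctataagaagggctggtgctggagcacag

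By the median over a gene's probe sets, 5 of the 10 chemokines were lower in the line labelled KALLU+ by 2-fold or more, 2 were higher by as much and 3 were within 2-fold. Of all 20679 genes, 5.08% were at least 2-fold lower and 4.69% at least 2-fold higher, and since this contrast was known when the genes were chosen, nothing is read from the excess. The median log2 fold change of the 10 was -0.70, where that of all genes was -0.04. Counted by probe sets, 8 of 17 were at least 2-fold lower and 2 at least 2-fold higher, where 4.72% and 6.73% of all probe sets were. The genes formed 3 sets with a gap between them, since the probe set nearest the threshold from outside had a size of 0.41 on the log2 scale and the lowest in size of those past it was Ccl2 at -1.29. From the lowest to the highest, the order was Ccl7, Cxcl5, Cxcl1, Cxcl12, Ccl2, Ccl20, Cxcl2, Cx3cl1, Ccl5 and Cxcl10, across 7.19 log2 units. Without replicates the table gives no spread to separate neighbours in that order, and differences such as that between Ccl7 and Cxcl5, or between Cxcl1 and Cxcl12, were smaller than 0.49, the SD among probe sets that read 1 gene, pooled over genes.

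**Figure D1:**
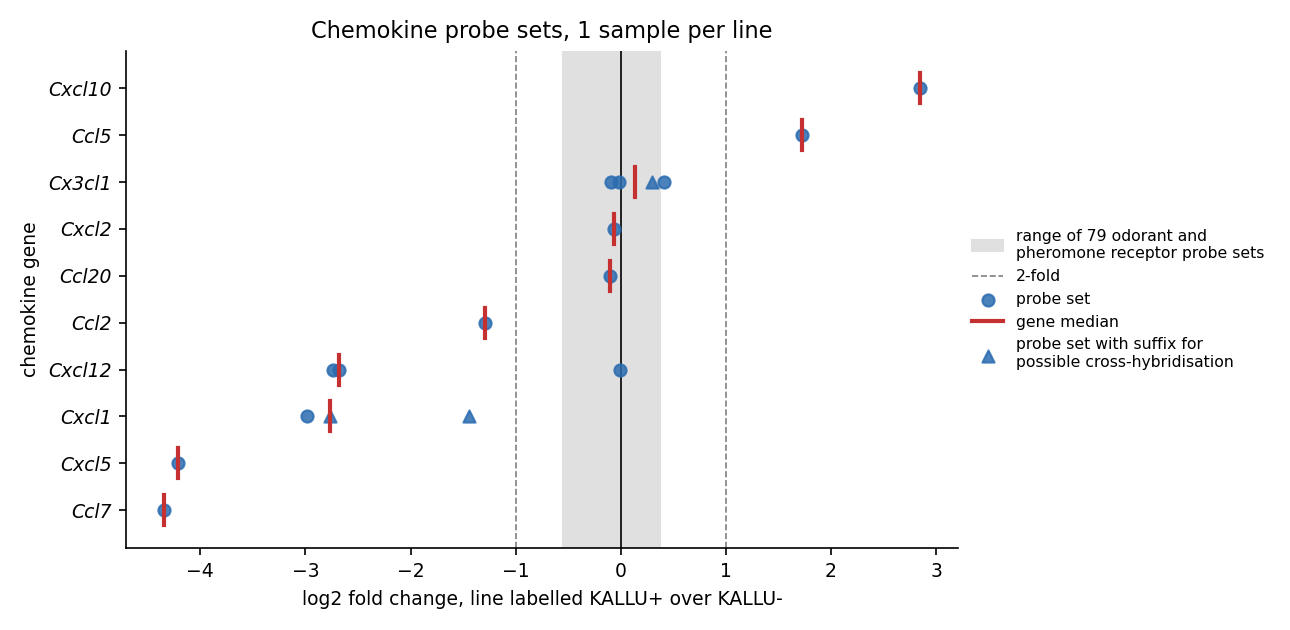
The log2 fold change (x axis, line labelled KALLU+ over the line labelled KALLU-) of each probe set of the 10 chemokine genes (y axis), with circles and triangles for probe sets without and with a suffix for possible cross-hybridisation, red bars for gene medians, dashed lines at 2-fold and a grey band for the range of 79 odorant and pheromone receptor probe sets. Ccl7, Cxcl5, Cxcl1, Cxcl12 and Ccl2 lie left of the band, Cxcl10 and Ccl5 right of it, and 1 probe set of Cxcl12 sits at 0 apart from the others.

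Among the neutrophil attractants, Cxcl5 and Cxcl1 were lower in the line labelled KALLU+ and Cxcl2 was not. Cxcl5, known in mouse as LIX, was 18.6-fold lower by its 1 probe set, -4.21 on the log2 scale, which ranked 110 from the lowest of all 45101. Cxcl1, known as KC, was lower at each of its 3 probe sets, by 7.89-fold, 6.82-fold and 2.71-fold. The smallest of these came from a probe set with the suffix _x_at and the middle one from a probe set with _s_at, which mark sequences shared with other transcripts, so the value least open to such sharing is also the largest. Cxcl2, or MIP-2, stood at -0.07 on the log2 scale by its 1 probe set, in the middle of the receptor range. The other ligands of this family on the array lay near Cxcl2: Cxcl3 was at -0.30, Cxcl15, or lungkine, at 0.07 and Ppbp, the platelet chemokine, at -0.43.

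The 2 monocyte attractants were both lower. Ccl7, or MCP-3, had the largest change of the 10, 20.3-fold lower by its 1 probe set, at -4.34 on the log2 scale and rank 98 from the lowest. Ccl2, or MCP-1, was 2.45-fold lower by its 1 probe set, at -1.29 on the log2 scale. Of the 5 lower chemokines Ccl2 had the smallest change, and with the spike-ins as the zero it would be -0.85, short of 2-fold. Cxcl12, the stromal chemokine that binds CXCR4 and the scavenging receptor ACKR3, was 6.68-fold and 6.39-fold lower at a pair of its probe sets, while the remaining one gave 1.00-fold, no difference. The probe sets of Cxcl12 thus spanned 2.74 log2 units and those of Cxcl1, all lower, 1.54 units. Which part of the Cxcl12 transcript the probe set near 0 reads is not given in the sources used here.

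The T cell attractants went the other way or stayed near 0. Cxcl10, or IP-10, was 7.20-fold higher in the line labelled KALLU+ at its 1 probe set, a log2 fold change of 2.85 at percentile 99.7 of all genes. Ccl5, or RANTES, was 3.31-fold higher at its 1 probe set, a log2 fold change of 1.73 at percentile 98.6. Ccl20, the ligand of CCR6 on IL-17-producing T cells, was at -0.10 at its 1 probe set. Cx3cl1, or fractalkine, a chemokine tethered to the cell surface until it is shed, was at -0.09, -0.02, 0.29 and 0.41 at its 4 probe sets, of which only the highest left the receptor range.

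Chemokine genes arose by duplication and still lie in clusters, so each gene was set beside its chromosomal neighbours. On chromosome 5 the array read 7 chemokines in a row from Cxcl5 to Cxcl2. Cxcl5 at the start and Cxcl1 next to the end were at least 2-fold lower, where 5.08% of all genes were. The other 5 were between -0.43 and 0.07, and Cxcl2, the immediate neighbour of Cxcl1, was among them. Of the 3 measured genes on either side of this cluster, Rassf6, next to Cxcl5, was at -1.19 and Ereg, which encodes the EGF receptor ligand epiregulin, at -6.30, so lower values in this stretch were not limited to chemokines. A second chromosome 5 cluster holds the CXCR3 ligands, and there Cxcl10 was at 2.85 while Cxcl9 and Cxcl11, which bind the same receptor and also answer to interferon, were at -0.15 and -0.17. None of the 7 other measured genes in and around that cluster reached 2-fold in either direction.

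On chromosome 11 the monocyte chemokine cluster runs from Ccl2 to Ccl1. In the line labelled KALLU+ 4 of its 6 chemokines were at least 2-fold lower, where 5.08% of all genes were. Ccl2 was at -1.29 and Ccl7 at -4.34, followed by Ccl11, the eosinophil attractant eotaxin, at -2.06 and Ccl8, or MCP-2, at -3.67. Ccl12, between Ccl11 and Ccl8, was at -0.37, and Ccl1, at the far end, at 0.27. The 1 probe set of Ccl8 and the 1 of Ccl12 each name a predicted locus as well, so these values may not belong to the chemokine alone. The 6 flanking genes lay between -0.19 and 0.45. Farther along the same chromosome, Ccl5 at 1.73 was followed by Ccl9, which attracts monocytes through CCR1, at -1.34, a value 2-fold lower next to one 2-fold higher. In that row Ccl6 was at 0.04, Ccl3 at -0.26 and Ccl4 at 0.51. Around the 3 remaining loci, the neighbours of Ccl20 and Cx3cl1, Ccl22 and Ccl17 among them, were within 2-fold, and 1 of 6 neighbours of Cxcl12, Zfp239, was lower at -1.64.

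**Figure D2:**
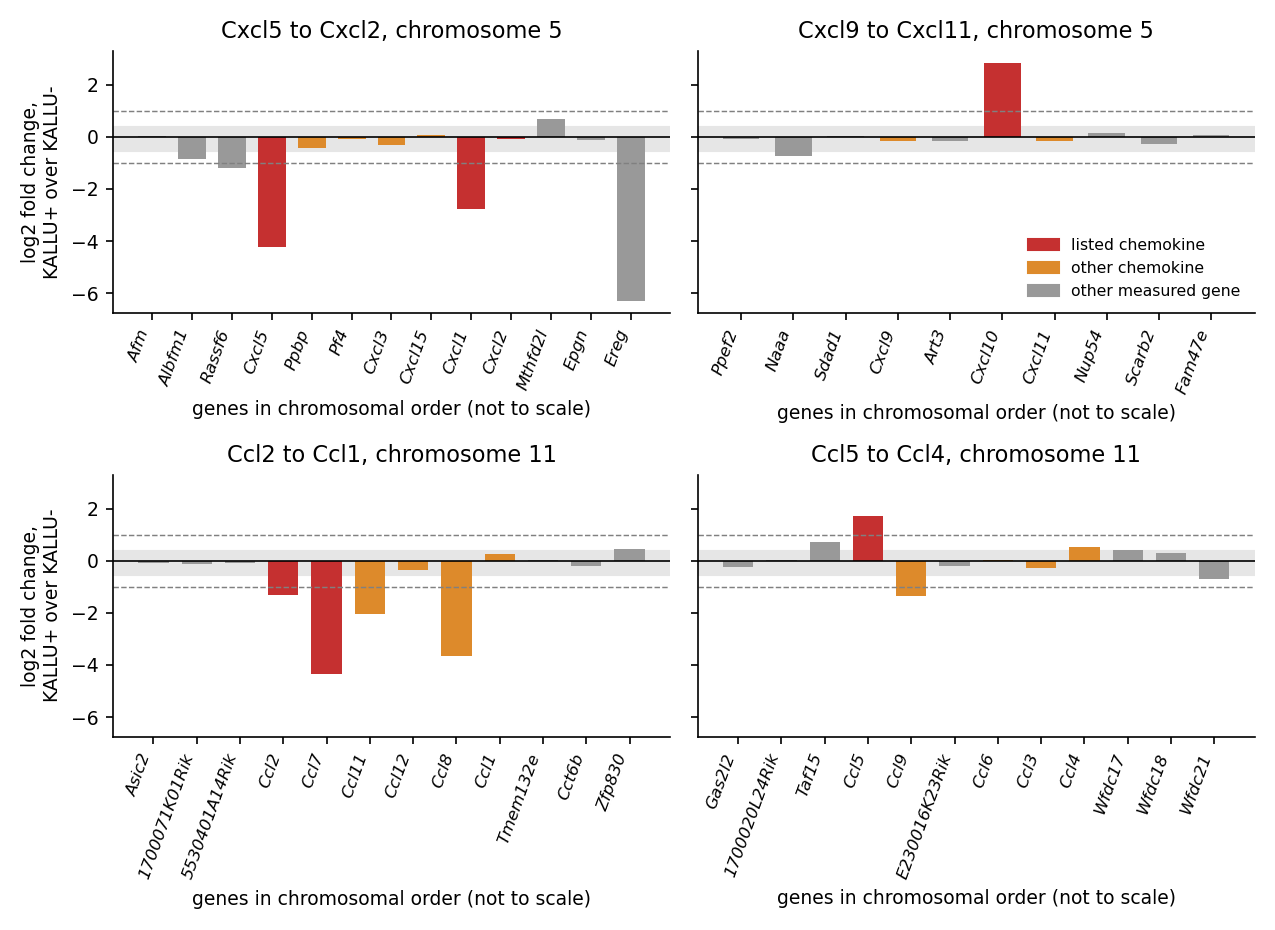
Bars give the log2 fold change (y axis, line labelled KALLU+ over the line labelled KALLU-) of measured genes in chromosomal order (x axis, not to scale) at 4 chemokine clusters with 3 flanking genes on each side, red for the listed chemokines, orange for other chemokines and grey for other genes, over the grey receptor range with dashed lines at 2-fold. Cxcl10 at 2.85 stands alone in its cluster, while Ccl2, Ccl7, Ccl11 and Ccl8 are all below -1 between flanks that stay within 0.45 of 0.

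Among the printed promoters are those of some of these neighbours. Cxcl1 and Cxcl2 hold the same 11 letters, GGGAATTTCCC, 71 and 97 bases before the start, which match the NF-κB consensus on both strands. Their values were -2.77 and -0.07, and with no levels Cxcl2 may be silent or equally active in both lines. Whether NF-κB had a part in either value was not tested. Cxcl10 holds 2 NF-κB matches that start 159 and 103 bases before the start, a match to the ISRE letters TTTCNNTTTC on the opposite strand at 213 bases, and a match to the AP-1 letters TGANTCA at 74 bases. Ccl20, at -0.10, holds 1 NF-κB match that starts 80 bases before the start, on the opposite strand. Cxcl12, at -2.68, and Cx3cl1, at 0.14, had no match to the NF-κB, ISRE or AP-1 letters in this window, and Cx3cl1 had the TATA letters TATAAA in the last 6 bases. Among all 32851 promoter windows of this length, 3.90% hold the NF-κB consensus, 2.98% the ISRE letters, 6.75% the AP-1 letters and 12.4% the TATA letters, each searched on both strands. No match of 1 motif overlapped that of another. Ccl2, Ccl5, Ccl7 and Cxcl5 have no entry in the promoter table. A match is a string of letters and not a measured site, and no binding was measured by these arrays.

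**Figure D3:**
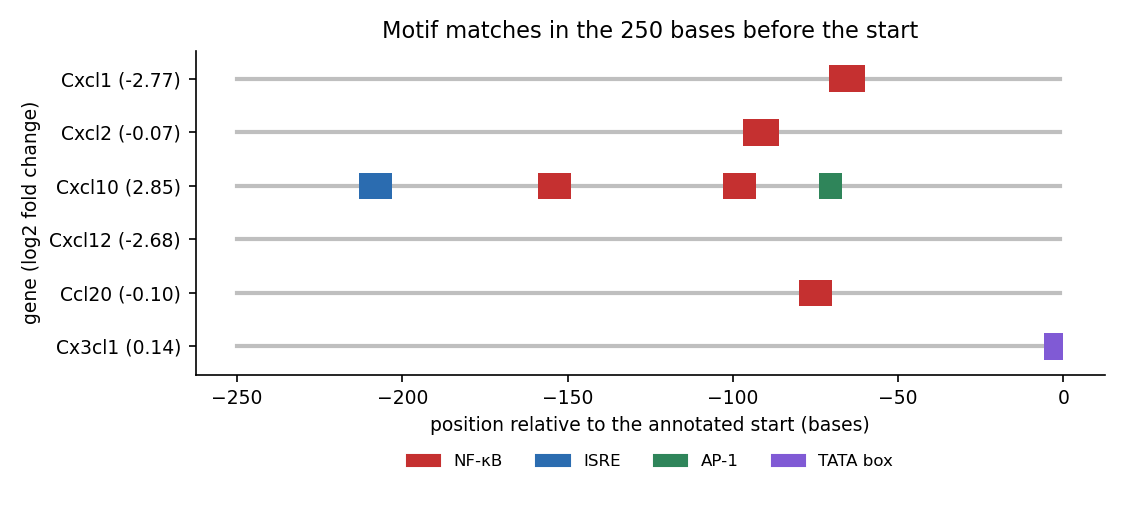
Motif matches (coloured blocks) on either strand in the 250 bases before the annotated start of 6 chemokine genes, with position in bases relative to the start on the x axis and each gene's log2 fold change beside its name. NF-κB blocks appear in Cxcl1 at -2.77, Cxcl2 at -0.07, Ccl20 at -0.10 and, as a pair, in Cxcl10 at 2.85.

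Of 30 other chemokine ligands listed, 29 were on the array, and 4 of these were at least 2-fold lower in the line labelled KALLU+ and 0 at least 2-fold higher, where 5.08% and 4.69% of all genes were. Ccl8, Ccl11 and Ccl9 are the clustered genes given above. The fourth, Cxcl16, a membrane-tethered ligand of CXCR6, had a log2 median of -1.37, but its probe sets stood apart, 4.18-fold lower at one with the suffix _s_at and 1.61-fold lower at the other. The remaining 25 lay within 2-fold, with Ccl4 highest at 0.51, and their list had a median of -0.08. Ccl21a, Ccl21b and Ccl21c are read by the same probe set. With the spike-ins as the zero, 2 of the 29 were at least 2-fold lower, Ccl8 and Ccl11.

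Of 23 chemokine receptors listed, 22 were on the array, and 1 was higher and 1 lower by 2-fold or more, shares near the 4.69% and 5.08% of all genes, so the counts set the list apart in neither direction. The pair past 2-fold bind Cxcl12. Cxcr4, the receptor that signals for migration, was 2.68-fold higher at its 1 probe set, a log2 fold change of 1.42, and Cxcr7, the older name of Ackr3, which takes up Cxcl12 without signalling through G proteins, was 3.42-fold lower at its 1 probe set, a log2 fold change of -1.77. The probe set of Cxcr7 has the suffix _s_at. Other receptors of the listed chemokines were within 2-fold: Cxcr2 was at 0.20, Cxcr3 at -0.07, Ccr2 at 0.05, Ccr6 at 0.04 and Cx3cr1 at -0.27. Ccr1, a receptor for Ccl5, Ccl7 and Ccl9, had a log2 median of -0.93, from probe sets at -1.54 and -0.32.

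Of 27 genes that carry TNF, IL-1, Toll-like receptor and IL-17 signals to NF-κB, 4 were at least 2-fold lower in the line labelled KALLU+ and 0 at least 2-fold higher, beside 5.08% and 4.69% of all genes, with a list median of -0.28 where all genes had -0.04. Nfkbiz, which encodes the nuclear co-activator IκBζ needed for many IL-17 and IL-1 target genes, was lower at all 3 probe sets, by 4.04-fold, 3.90-fold and 2.98-fold. Il17ra, the shared subunit of the IL-17 receptors, was lower at both probe sets, by 3.59-fold and 3.30-fold. Il1r1, the IL-1 receptor, was 5.91-fold lower at 1 probe set and at 0.02 on the log2 scale at the other. Tnfrsf1a, which encodes TNFR1, was 2.24-fold lower at its 1 probe set, a log2 fold change of -1.16 that goes against the label as given above. The subunits of NF-κB were all within 2-fold by the median, with Rela at -0.44, Rel at -0.06, Relb at -0.01, Nfkb1 at -0.06 and Nfkb2 at -0.14. Chuk, which encodes IKKα, kinase-dead in both lines, was at 0.30, 0.51 and 0.66 at its 3 probe sets. The inhibitors Nfkbia and Tnfaip3, which NF-κB itself induces, had log2 medians of 0.17 and 0.33. Nfkbib and Nfkbie, also inhibitors on this list, had medians of -0.09 and -0.08. Each of these medians lay within the receptor range.

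Of 14 genes of interferon signalling, 4 were at least 2-fold lower and 0 at least 2-fold higher in the line with the higher Cxcl10, that labelled KALLU+, again beside 5.08% and 4.69% of all genes. Ifnar2, a subunit of the type I interferon receptor, was lower at all 3 probe sets, by 6.35-fold, 5.27-fold and 3.59-fold. Jak2, a kinase of the interferon-γ receptor, was lower at both probe sets, by 3.90-fold and 2.83-fold. Jak1, also a kinase on this list, had a log2 median of -0.88, with 1 of 3 probe sets 2.08-fold lower. Ifngr2, a chain of the interferon-γ receptor, was 3.74-fold and 1.56-fold lower. Irf1, a factor induced by interferon-γ, was 2.25-fold lower at its 1 probe set. Factors of the type I response lay above 0 and within 2-fold, with Irf9 at 0.71, Stat2 at 0.57 and Irf7 at 0.38. Across both pathway lists 8 genes were at least 2-fold lower, and with the spike-ins as the zero 4 were, beside 2 that were at least 2-fold higher.

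**Figure D4:**
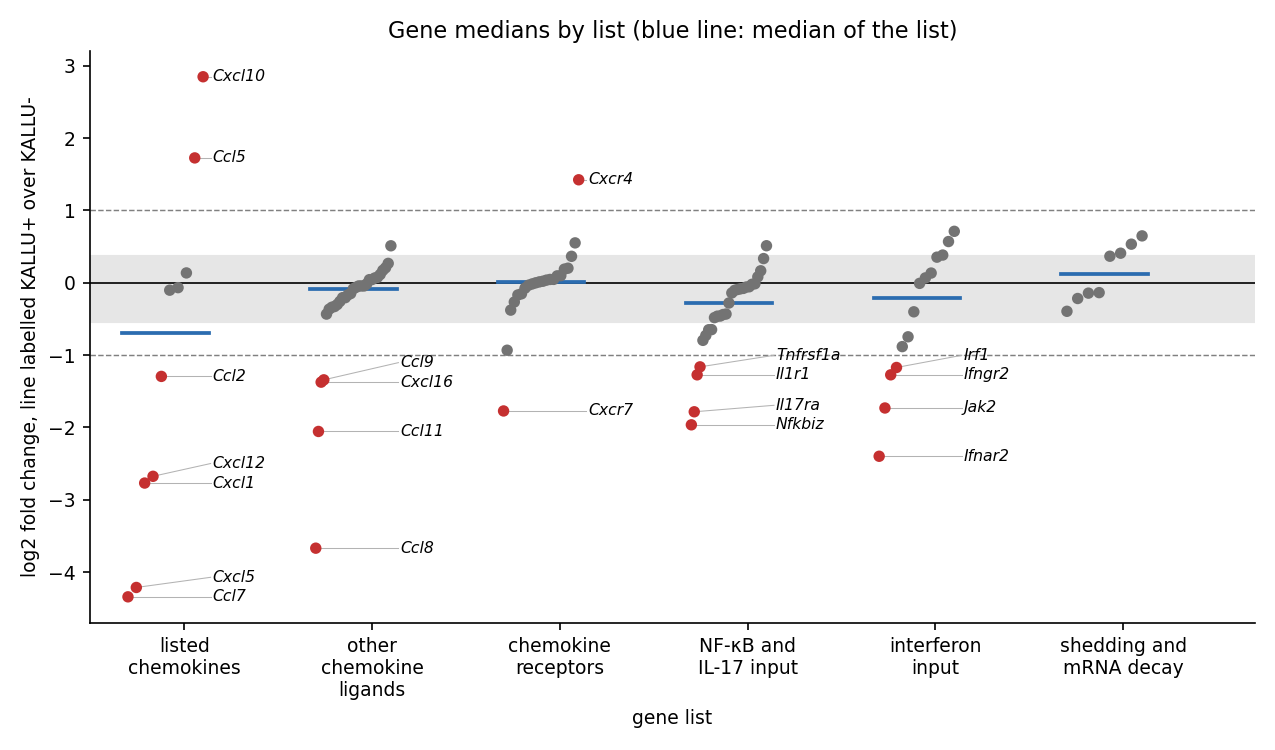
Gene medians of the log2 fold change (y axis, line labelled KALLU+ over the line labelled KALLU-) in 6 lists (x axis), each dot a gene, red and named where at least 2-fold, with a blue line at the median of the list, the grey receptor range and dashed lines at 2-fold. The listed chemokines spread from -4.34 to 2.85, while among the 22 receptors only Cxcr4 and Cxcr7 pass 2-fold.

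Of the 8 genes that shed chemokines or act on the stability of their messages, 0 were 2-fold changed by the median. Adam17 and Adam10, the proteases that release Cx3cl1 and Cxcl16 from the surface, were at 0.65 and 0.53, and Dpp4, which clips Cxcl10, Cxcl12 and Ccl5, was at -0.14. Of the genes that promote decay of chemokine messages, Zc3h12a was at -0.39, Khsrp at -0.22, Zfp36 at -0.14 and Zfp36l1 at 0.37. Elavl1, also listed for message stability, had a median of 0.41, and 2 of its 6 probe sets were 2.10-fold and 3.03-fold higher. By the median 4 of the 8 genes lay above 0 and 4 below.

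Since leukocytes, endothelial cells and fibroblasts also make these chemokines, their markers were read beside them. Of 7 leukocyte markers measured of 8 listed, 0 were 2-fold changed by the median, over a range from -0.41 to 0.19. Csf1r, the receptor of monocytes and macrophages, was the lowest of them, and 1 of its 3 probe sets was 2.70-fold lower, with the others at -0.41 and -0.24. By the median 0 of 4 endothelial markers were 2-fold changed, from -0.37 to 0.31, and 0 of 5 epithelial markers, from -0.09 to 0.33. Of 7 fibroblast markers, 2 were at least 2-fold lower in the line labelled KALLU+, where 5.08% of all genes were, Fap at -3.00 and Pdgfrb at -1.16. Lum was at -0.99, Col1a1 at -0.91, Pdgfra at -0.46, Col1a2 at -0.11 and Dcn at 0.42, and 1 of 3 probe sets of Col1a2 was 2.32-fold higher. By the median, 6 of the 7 fibroblast markers thus lay below 0 and 1 above. Their list median was -0.91, where that of all genes was -0.04. The part of fibroblasts, leukocytes or endothelial cells in the chemokine values was not tested.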

How the data were processed

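RNA of 2 cell lines was hybridised to the Affymetrix Mouse Genome 430 2.0 Array, with 1 sample per line. The authors analysed the scans in Partek Genomics Suite, and the submitters' processing notes also name MAS5; normalization, background correction and the number of arrays are not given in the sources used here. The authors deposited 1 signed linear fold change per probe set (S1 over S2, none between -1 and 1), an array result and not a per-sample value, so there was no test, SD or filter on dim probe sets. Here log2 of the size was taken and the sign kept. Each gene was given the median of its probe sets, and the 20679 background genes are those with a probe set of their own. Changes are given by size, at least 2-fold. The 10 members were named at every probe set, as were Tnfrsf1a, Chuk, Rela and Rel, and with Ly6a and Cd24a for the labels (the check on 13 genes was added after the values were seen); of the other lists the rule names genes with all probe sets at least 2-fold changed in 1 direction. Other genes in the text were picked after their values were seen, for their link to a member. Members and lists were chosen with earlier results of these data known, and the receptor range, loci and motifs were chosen after the values were seen. RefSeq's table for GRCm38.p6 gave only gene order for the clusters, since the deposited table names no build. Alternatives were sizes of 1.5-fold and 4-fold, removal of cross-hybridisation suffixes, the most changed probe set per gene, probe sets naming 1 gene, and centring on all probe sets or the poly-A controls. The steps were tested on simulated data. Python 3.11.15, numpy 2.4.6, pandas 2.3.3 and matplotlib 3.10.9 were used.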

Additional observations from a re-analysis of the deposited data

How the results depend on the processing

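No paired analysis was possible because each line has 1 sample and the table holds no per-sample values, and for the same reason the planned test between the lines was not run. The 50 values of single chemokines under the alternatives moved by less than 0.49 log2 units, the SD among probe sets of a gene. Most of them could not have moved further. The centrings shift every gene alike, by medians of -0.02 and -0.45, which are smaller in size than 0.49. Keeping probe sets that name 1 gene could change nothing, since every member probe set does so. Cxcl2 and Ccl20, both just below 0, turned to 0.38 and 0.34 with the poly-A controls as the zero, and Ccl2 was then short of 2-fold at -0.85. For the 7 genes with 1 probe set only the centrings could move a value. That left only Cxcl1, Cxcl12 and Cx3cl1 able to pass the limit of 0.49. The count of 5 lower chemokines stayed within 1.5 times under every alternative run, and the count of 2 higher ones did except at 4-fold, where it was 1. Of the 27 and 14 genes on the lists of inducing pathways, 14 were lower and 1 higher at 1.5-fold, and 2 receptors were lower. At 4-fold 1 pathway gene and 2 other ligands were lower, and 0 receptors were changed in either direction. The shares of all genes under the alternatives were not computed, so nothing is read from these counts. Without cross-hybridisation suffixes 0 receptors were lower, because the 1 probe set of Cxcr7 carries one. By the probe set with the largest change 2 receptors were lower. Centred on the poly-A controls, 2 other ligands and 4 pathway genes were lower and 2 pathway genes higher, by the construction of that shift. Signal over background is unknown, so the precision of each value is too.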
